A study of Homo sapiens with 6 samples.

Results

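Fatty acid synthesis and desaturation were followed in HK-2 cells, a human line derived from the epithelium of the renal proximal tubule, through 10 genes: *SREBF1*, *ACLY*, *ACACA*, *FASN*, *SCD*, *ELOVL5*, *ELOVL6*, *FADS1*, *FADS2*, and *ACSL3*. The genes were taken by name as the transcription factor SREBP1 and the enzymes of synthesis, elongation, and desaturation, and all 10 were found by Ensembl identifier among the 29483 genes of the table. All cells were kept in 25 mM HG (high D-glucose) medium for 7 days. The control group of 3 replicates then received no TEPP-46, and the case group of 3 replicates received 10 μM TEPP-46, an activator of the glycolytic enzyme PKM2, for 1 day in the same medium. No group without HG was included, and a vehicle for the control group was not named in the sources used here. All replicates came from 1 cell line. The paper describes the replicates as independent and as treated separately. The labels do not describe how far the cultures were separate. P-values therefore set the difference of the groups against the spread between these samples, and whether they extend to new cultures was not tested.

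In the pathway, ACLY splits cytosolic citrate into acetyl-CoA, ACACA carboxylates acetyl-CoA to malonyl-CoA, and FASN joins these units into palmitate. ELOVL6 lengthens palmitate, and SCD introduces the first double bond. FADS2 and FADS1 desaturate polyunsaturated fatty acids, ELOVL5 lengthens them, and ACSL3 couples long-chain fatty acids to CoA. SREBP1, the product of *SREBF1*, is a transcription factor that is held in the endoplasmic reticulum until it is cleaved and that activates many of these genes. In the kidney, proximal tubule cells use fatty acids as a main fuel, and stored lipid in these cells is a known feature of diabetic kidney disease.

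TEPP-46 treatment was followed by lower expression of the enzymes at the start of the pathway. *FASN* fell by 40.9%, *ACACA* by 30.6%, and *ACLY* by 25.6%, and these 3 of the 10 genes were downregulated DE genes (limma, adjusted p of at most 0.05). None of the 10 was an upregulated DE gene by limma on FPKM or by limma voom on whole reads. Among all 13599 tested genes, 5.84% were downregulated and 7.34% were upregulated DE genes. *SREBF1* itself, the desaturases, the elongases, and *ACSL3* did not pass the test. After scaling, the values of the case group lay below the controls without overlap in those 3 genes and above them in 2, *FADS1* and *FADS2*. The groups did not overlap in 39.9% of all tested genes, in 20.4% with the case group lower and in 19.5% with it higher. By unadjusted p under 0.05, the same 3 genes were lower and none of the 10 was higher, where 16.2% of all tested genes were lower and 16.8% higher. The calls needed all 3 control replicates: without any one of them no gene of the 10 was a DE gene, and over all tested genes the downregulated DE genes numbered 16 to 28. The direction of the 3 genes was the same in each of these fits.

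The sequences before the transcription starts of 2 of the 3 downregulated genes and of *SCD*, which was not a DE gene, are shown because SREBP1 acts together with NF-Y and Sp1 at promoters of this pathway. They were taken from a set of RefSeq start sites (GRCh38.p14) supplied for this report. The set held 13 start sites for 9 of the 10 genes and no entry for *FASN*. Each is 250 bases that end at the base before a start and overlap no annotated exon, with matches in capitals, which read ATTGG or CCGCCC where CCAAT or GGGCGG lies on the other strand. Both strands were searched for the sterol regulatory element TCACNCCAC, the E-box CACGTG, the CCAAT box of NF-Y, and the GC box GGGCGG of Sp1. The GC box can overlap further copies of itself. *ACLY* (chr17:41919023-41919272) and *ACACA* (chr17:37299768-37300017) are read on the minus strand, each before a start inside the annotated span of its gene. *SCD* is read on the plus strand (chr10:100346983-100347232).
ACLY: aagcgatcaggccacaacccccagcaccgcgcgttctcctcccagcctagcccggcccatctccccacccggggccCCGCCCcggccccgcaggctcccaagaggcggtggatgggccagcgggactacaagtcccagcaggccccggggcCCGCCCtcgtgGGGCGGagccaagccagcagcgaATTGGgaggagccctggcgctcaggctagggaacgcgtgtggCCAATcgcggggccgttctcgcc
ACACA: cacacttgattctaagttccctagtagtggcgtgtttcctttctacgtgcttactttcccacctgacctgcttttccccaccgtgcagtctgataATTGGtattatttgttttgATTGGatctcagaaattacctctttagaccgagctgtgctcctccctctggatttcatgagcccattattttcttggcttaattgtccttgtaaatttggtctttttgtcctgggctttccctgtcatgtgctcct
SCD: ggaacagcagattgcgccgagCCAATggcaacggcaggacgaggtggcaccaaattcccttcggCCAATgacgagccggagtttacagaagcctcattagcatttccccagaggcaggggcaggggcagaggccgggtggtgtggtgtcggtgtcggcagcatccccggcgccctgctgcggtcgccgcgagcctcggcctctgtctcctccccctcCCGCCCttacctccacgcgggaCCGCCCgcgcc
The *ACLY* window held 2 CCAAT boxes and 3 GC boxes, the *ACACA* window 2 CCAAT boxes, and the *SCD* window 2 CCAAT boxes and 2 GC boxes. The *ACACA* windows not shown, which overlap annotated exons, held 5 and 6 GC boxes and 0 and 1 CCAAT boxes. Over all start sites of the 9 genes, CCAAT was found in 7 and GGGCGG in 10 of the 13 windows, which belong to 5 and 8 genes, against 32.0% and 42.6% of the 35116 windows of this length in the RefSeq table. The *ACLY* windows overlap each other and share boxes, so *ACLY* adds to the window counts more than once. The *FADS2* windows also overlap each other. CACGTG was found before *ELOVL5* alone and in 6.34% of all windows, and TCACNCCAC was found before none of the 9 genes and in 0.883% of all windows. These are matches of letters and were not tested as binding sites.

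The values are FPKM as the authors deposited them, that is, reads scaled by the exonic length of the gene and by library depth. The FPKM values moved in steps of whole reads, from which the reads counted on genes were derived for each library. They were 18634891, 17924033, and 17378710 in control replicates 1, 2, and 3 and 16711934, 16047243, and 15363254 in case replicates 1, 2, and 3, so each case library held fewer reads counted on genes than each control library. The 10 genes were covered by between 495 reads (*ELOVL6*, case replicate 1) and 26589 reads (*SCD*, control replicate 2), and all 10 passed the filter of a mean FPKM of at least 0.5. Log2 fold changes are case minus control on the scale of log2(FPKM + 0.1), after FPKM was divided by 1 median-of-ratios factor per library (0.944 to 1.036). Adjusted p is by limma with the Benjamini-Hochberg method over all tested genes. On this log2 scale the replicates of a group had a median SD over genes of 0.09 (control) and 0.19 (case). By the alignment statistics of the paper, the intronic share of mapped reads was above all controls in case replicates 2 and 3. In case replicate 1 it was below all controls. Whether this bears on the fold changes was not tested.

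The cell identity was checked with markers. Of 7 epithelial markers, *KRT8*, *KRT18*, *KRT19*, *EPCAM*, and *CDH1* were expressed. *PAX8* was at 0.0653 to 0.194 FPKM and was not tested, and *CDH2* was not in the table. The epithelial list summed to between 719 and 924 FPKM, with *KRT19* at 300 to 384 FPKM. Of the 5 tested epithelial genes, *CDH1*, which encodes E-cadherin, was a downregulated DE gene (log2 fold change -0.64, limma adjusted p = 0.0156). The other 4 were not DE genes, with *KRT8* at -0.27, *KRT18* and *KRT19* at 0.02, and *EPCAM* at 0.04. Of 8 proximal tubule markers such as *AQP1*, *LRP2*, and *CUBN*, 7 were in the table and none reached a mean FPKM of 0.5. Their sum was between 0.238 and 0.493 FPKM per library, with *GGT1* the most abundant at 0.0984 to 0.206. The marker lists of endothelial cells, leukocytes, podocytes, distal nephron, adipocytes, and hepatocytes each summed to at most 0.323 FPKM in any library. *PECAM1*, *CD68*, *NPHS1*, *SLC12A3*, *PLIN1*, and *APOA1* were the most abundant of these lists. The fibroblast markers were not analysed here because no gene of that list was in the table. In bulk samples such as these, fewer cells of a type and less RNA per cell cannot be told apart.

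**Figure D1:**
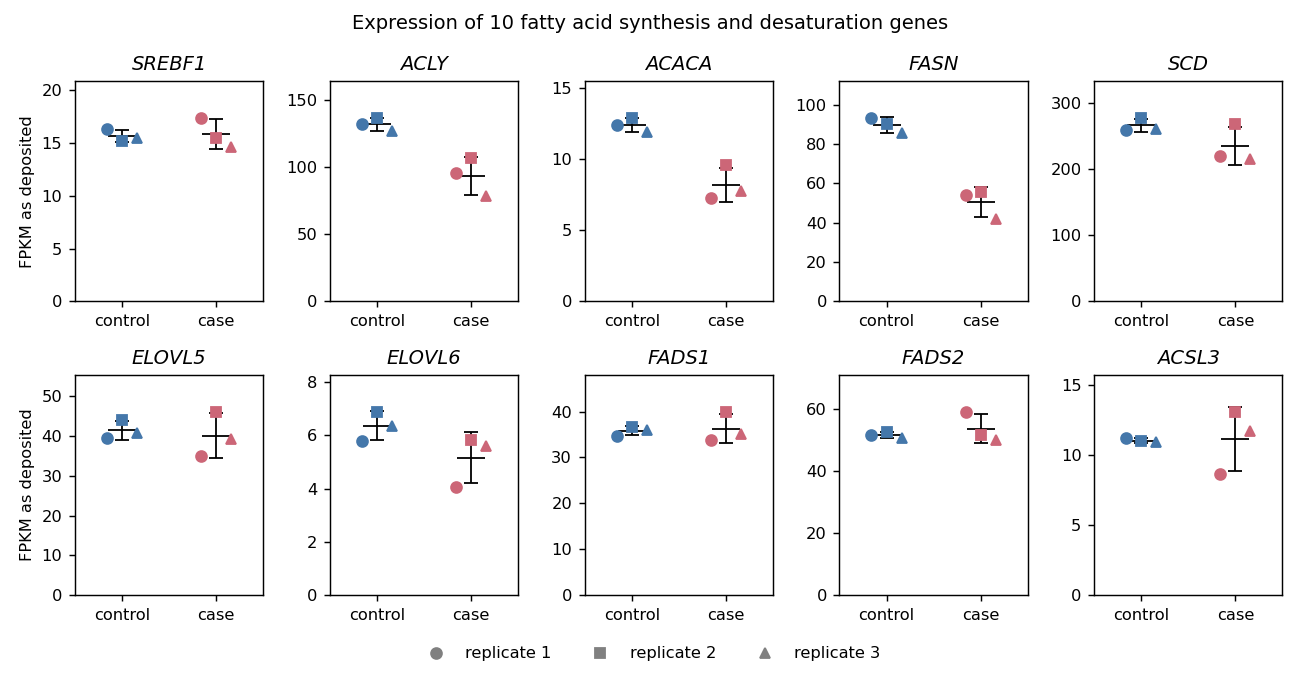
FPKM as deposited of the 10 genes (vertical axes, each from 0) in 3 control (blue) and 3 case (red) replicates, with marker shape giving the replicate number and black bars the mean and SD. The case values of *ACLY*, *ACACA*, and *FASN* all lie below the control values, while the groups of the other genes lie close together or overlap, with *ELOVL6* between 4.06 and 5.82 in the case group.

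*FASN* (ENSG00000169710) is on chromosome 17 of GRCh38 (82078338 to 82098294), minus strand. It was measured at 93.4, 90.4, and 85.6 FPKM in control replicates 1, 2, and 3 and 54.2, 55.8, and 42.0 in case replicates 1, 2, and 3, on 6044 to 16299 reads per library. The groups did not overlap, and case replicate 3 was the lowest of the libraries. The log2 fold change was -0.76 ± 0.12 (standard error, limma adjusted p = 0.0136), a fold of 0.591 with a 95% interval from 0.490 to 0.714. A lower log2 fold change was found in 2.80% of the tested genes. *FASN* was a DE gene under each of 14 alternative scalings, filters, and models, with log2 fold changes from -0.96 to -0.57. It was not a DE gene without control replicate 1, 2, or 3, where the adjusted p reached 0.0715.

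*ACACA* (ENSG00000278540) encodes acetyl-CoA carboxylase 1, the committed step of synthesis, on the minus strand of chromosome 17, from 37084992 to 37406836. The gene had an FPKM of 12.4, 12.9, and 11.9 in the controls and 7.28, 9.55, and 7.77 in the case replicates. Each case replicate was below each control replicate, and case replicate 2 was the closest to the controls. The log2 fold change was -0.53 ± 0.10 (standard error, limma adjusted p = 0.0204). The call was lost after a correction for gene length (log2 fold change -0.23, adjusted p = 0.0834), and with that correction and the replicate block together (adjusted p = 0.13). With the replicate block alone it was kept (adjusted p = 0.0256). It was also lost when all genes were tested unfiltered (adjusted p = 0.0504), and without case replicate 3 or any one of the control replicates, where the adjusted p reached 0.0994. *ACACB*, which encodes the second carboxylase, was expressed at 1.12 to 1.37 FPKM in the controls and 0.588 to 0.859 in the case replicates, again without overlap. It did not pass the test (log2 fold change -0.54, standard error 0.21, adjusted p = 0.125).

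*ACLY* (ENSG00000131473) occupies positions 41866917 to 41930542 of the minus strand of chromosome 17. FPKM values were 132, 137, and 127 in the controls and 95.6, 107, and 78.9 in the case replicates, without overlap and lowest again in case replicate 3. The log2 fold change was -0.43 ± 0.11 (standard error, limma adjusted p = 0.0434). Its adjusted p was close to the threshold, and over the 14 alternatives it ran from 0.0145 to 0.113. *ACLY* lost its call when all genes were tested unfiltered, when the intensity trend was left out, and without case replicate 3 or any one of the control replicates. *ACSS2*, which makes cytosolic acetyl-CoA from acetate, had a log2 fold change of -0.02 (95% interval -0.22 to 0.19) and was not a DE gene.

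Over all tested genes, the fold changes differed between classes of exonic length. Of the 2298 tested genes with at least 8000 exonic bases, the median log2 fold change was -0.23, and 14.6% were downregulated and 1.65% upregulated DE genes. Of the 3486 genes with 2000 to 4000 exonic bases, the median was 0.11, and 2.55% were downregulated and 11.8% upregulated. Between them, the 5050 genes with 4000 to 8000 bases had a median of -0.05, with 6.2% downregulated and 5.47% upregulated. *ACLY* and *SCD* belong to this middle class. The exonic length at which the FPKM of a gene gave whole reads was 9364 bases for *FASN*, 13008 for *ACACA*, and 5217 for *ACLY*. It was 10230 for *FADS1*, 11026 for *FADS2*, and 8030 for *SREBF1*. These lengths were inferred, and the annotated lengths were 9321, 13022, 5208, 10228, 10553, and 8234 bases in the same order. After each library was corrected for gene length, *FASN* was at -0.57 (adjusted p = 0.0303 by limma) and *ACLY* at -0.40 (adjusted p = 0.0486), and both were still DE genes, while *ACACA* moved from -0.53 to -0.23 and was not (adjusted p = 0.0834). By GC content, the median log2 fold change of all tested genes ran from -0.08 to 0.03 over 4 classes. After a correction for GC content the 3 genes were at -0.74, -0.55, and -0.45 for *FASN*, *ACACA*, and *ACLY*. How far length contributed beyond these corrections was not tested.

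**Figure D2:**
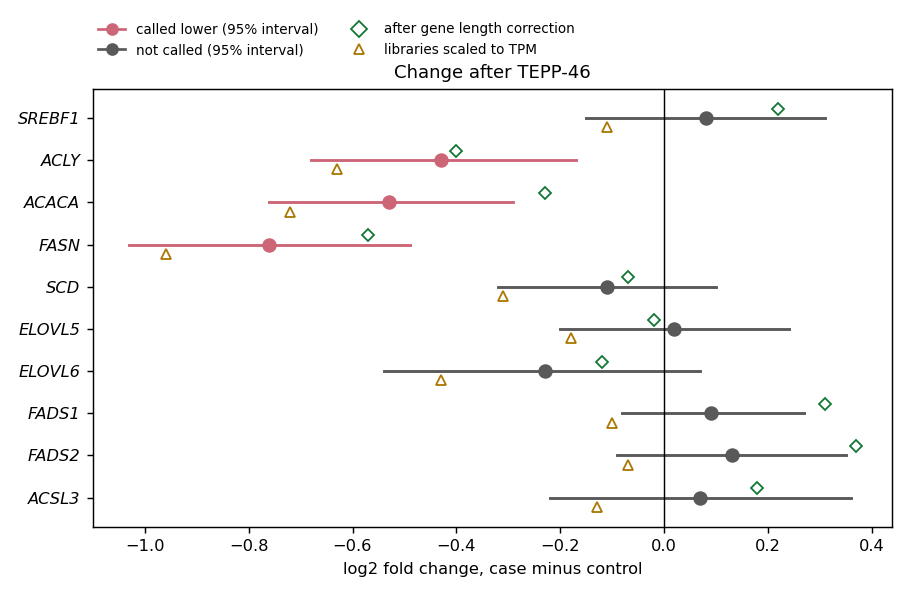
Log2 fold change of the 10 genes, case minus control (horizontal axis), with the 95% interval as a line, red where limma called the gene lower. Green diamonds give the value after gene length correction and yellow triangles the value with libraries scaled to TPM, which lowered all 10 genes, with *FASN* at -0.96.

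*SCD* (ENSG00000099194, chromosome 10, 100347233 to 100364826) encodes the desaturase that makes monounsaturated fatty acids and was the most abundant of the 10 genes by FPKM. Its FPKM was 259, 277, and 260 in the controls and 220, 268, and 215 in the case replicates. Case replicate 2 lay between the control values, so the groups overlapped. The log2 fold change was -0.11 ± 0.09 (standard error, limma adjusted p = 0.442), with a 95% interval from -0.32 to 0.10, so that a fall of the size of that of *FASN* lay outside the interval. *SCD* has a processed pseudogene, with which reads could be shared. *SCD5*, the other human stearoyl-CoA desaturase, was between 3.65 and 5.08 FPKM and was not a DE gene (log2 fold change -0.13, adjusted p = 0.470).

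*FADS1* (ENSG00000149485, delta-5 desaturase) and *FADS2* (ENSG00000134824, delta-6 desaturase) are neighbours on chromosome 11, where *FADS1* spans 61799627 to 61829318 on the minus strand within the span of *FADS2* on the plus strand, 61792980 to 61867354. They share few exonic bases with other genes, 5.57% of *FADS1* and 5.11% of *FADS2* on either strand, and the strand setting of the counting is not given in the sources used here. *FADS1* was at 34.7, 36.7, and 36.0 FPKM in the controls and 33.9, 40, and 35.0 in the case replicates. *FADS2* was at 51.7, 52.5, and 50.6 FPKM in the controls and 59.1, 51.7, and 50.1 in the case replicates. In both genes the groups overlapped as deposited and parted by a small margin after scaling. The log2 fold changes were 0.09 (95% interval -0.08 to 0.27, adjusted p = 0.421 by limma) for *FADS1* and 0.13 (95% interval -0.09 to 0.35, adjusted p = 0.376) for *FADS2*. After the gene length correction *FADS1* was at 0.31 and was an upregulated DE gene (adjusted p = 0.0291, but 0.0639 with the replicate block added), and *FADS2* was at 0.37 and was not (adjusted p = 0.113). With TPM both were negative, at -0.10 and -0.07.

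*ELOVL6* (ENSG00000170522, chromosome 4, 110045846 to 110199199) had the lowest FPKM of the 10 genes, 5.80, 6.89, and 6.36 in the controls and 4.06, 5.82, and 5.58 in the case replicates. Case replicate 2 was slightly above control replicate 1, and the log2 fold change was -0.23 (standard error 0.13, 95% interval -0.54 to 0.07, adjusted p = 0.254 by limma). *ELOVL5* (ENSG00000012660, chromosome 6, 53267398 to 53349179) was at 39.6, 44, and 40.7 FPKM in the controls and 35.0, 46.2, and 39.2 in the case replicates. Its log2 fold change was 0.02 with a 95% interval from -0.20 to 0.24, and its sign changed with the scaling. For both elongases, case replicate 1 was the lowest library and case replicate 2 the highest of the case group.

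*ACSL3* (ENSG00000123983, chromosome 2, 222860942 to 222944639), an acyl-CoA synthetase of the endoplasmic reticulum and lipid droplets, was at 11.2, 11, and 10.9 FPKM in the control replicates. In the case replicates it was at 8.66, 13.1, and 11.7 FPKM, on at least 1048 reads. The case replicates lay on both sides of the controls, and the log2 fold change was 0.07 (95% interval -0.22 to 0.36, adjusted p = 0.742 by limma). *SREBF1* (ENSG00000072310, chromosome 17, 17810399 to 17837002) was at 16.3, 15.2, and 15.5 FPKM in the controls and 17.4, 15.5, and 14.6 in the case replicates. The groups overlapped, and the log2 fold change was 0.08 (95% interval -0.15 to 0.31, adjusted p = 0.596 by limma). The gene has promoters for the isoforms SREBP1a and SREBP1c, which these gene-level values do not separate.

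The balance between genes was measured as a ratio within each library, which does not depend on the scaling between libraries. The 6 ratios were compared by an exact permutation test (two-sided), in which 3 against 3 replicates cannot give a p below 0.1. *SCD*/*FASN* was 2.78, 3.06, and 3.03 in the controls and 4.06, 4.81, and 5.12 in the case replicates, and each case ratio was above each control ratio (log2 difference 0.65, exact p = 0.1, adjusted over the 6 ratios 0.15). *ACLY*/*ACSS2* was 6.76, 6.27, and 6.74 against 4.91, 5.70, and 4.34 (exact p = 0.1), lower in 3 of 3 case replicates. *SREBF1*/*SREBF2* was 0.425, 0.409, and 0.421 against 0.560, 0.471, and 0.538 (exact p = 0.1), higher in 3 of 3 case replicates. *ELOVL6*/*ELOVL5* was 0.146, 0.156, and 0.156 against 0.116, 0.126, and 0.142 (exact p = 0.1), lower in 3 of 3. The ratios were not corrected for gene length. With that correction the log2 fold changes of *ELOVL6* and *ELOVL5* lay closer together, at -0.12 and -0.02, against -0.23 and 0.02 without it. *ACACA*/*FASN* (log2 difference 0.23, exact p = 0.3) and *FADS1*/*FADS2* (log2 difference -0.04, exact p = 0.8) overlapped between the groups. No ratio had an adjusted p below 0.15 in this exact test.

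**Figure D3:**
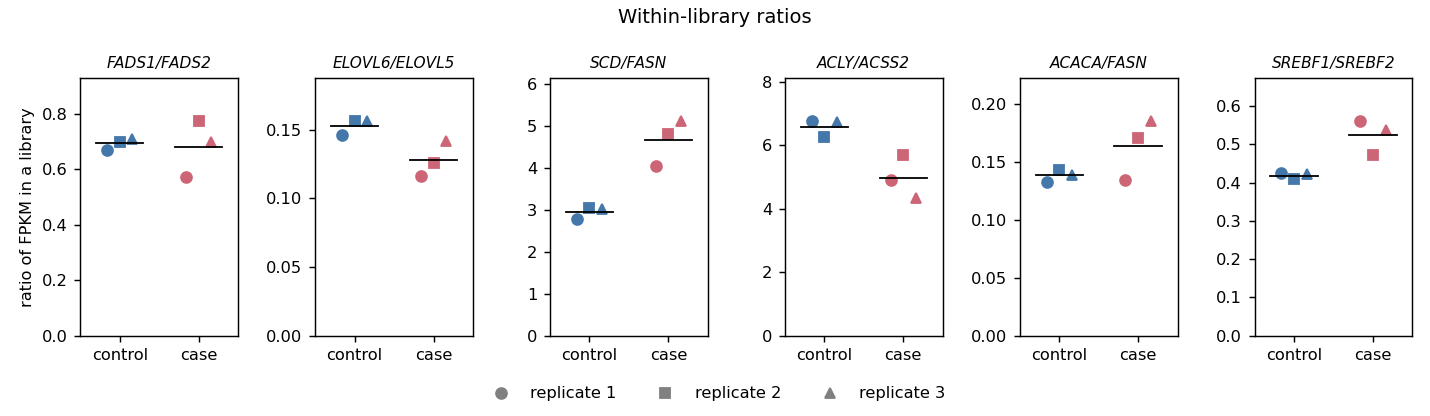
Ratio of the FPKM of 2 genes within a library (vertical axes from 0) in 3 control (blue) and 3 case (red) replicates, with the mean as a line and marker shape giving the replicate number. *SCD*/*FASN* is between 2.78 and 3.06 in the controls and between 4.06 and 5.12 in the case replicates, and *FADS1*/*FADS2* overlaps.

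Summed over the 10 genes, the scaled FPKM was 639, 661, and 622 in the controls and 568, 606, and 508 in the case replicates. The mean sum of the controls was 640 ± 19.7 and that of the case group 560 ± 49.2 (SD, n = 3 each) (exact permutation test, p = 0.1, the smallest possible). The groups did not overlap. *SCD* held 40.1% of the sum as deposited in controls and 42.6% in case replicates, while the share of *FASN* was 13.6% and 9.21% and that of *ACLY* 20% and 17.0%.

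The genes around the pathway were followed with 12 lists of 170 genes, of which 163 were in the table and 143 were tested. Of these, 15 were upregulated and 3 were downregulated DE genes, beside 7.34% and 5.84% of all tested genes, which are also the shares to read the counts of each list against, and their median log2 fold change was 0.03, against 0.00 for all tested genes and -0.04 for the 10 genes of synthesis and desaturation. Without each replicate in turn the upregulated genes of the lists numbered 1 to 23, and with TPM, which moved the median of all tested genes to -0.19, the lists held 4 upregulated and 23 downregulated genes. *G0S2* was a DE gene in all 20 of these fits, and *EBP*, *ECI2*, *PLIN2*, and *LPCAT1* in all 14 that used every replicate. Of those 14, *MGLL* was a DE gene in 12, *ACSL4* in 11, *VLDLR* and *STK11* in 10, and *INSIG1* and *PRKAB1* in 9. *NDUFAB1*, *ACOT9*, *GPAT3*, *ACAA2*, and *FDFT1* were DE genes in 8 of the 14, *PRKAG1* in 7, and *ELOVL1* in 6. All 18 DE genes of the lists had the same sign in every fit. Of the 13 tested genes of SREBP regulation, *INSIG1* alone was a DE gene by limma on FPKM, and limma voom called 1 higher and 1 lower. It encodes the protein that retains the SREBP escort SCAP in the endoplasmic reticulum and is itself a known SREBP target. *INSIG1* was at 27.1, 27.8, and 28.1 FPKM in the controls and 31.1, 35.4, and 32.4 in the case replicates (log2 fold change 0.33 ± 0.07, limma adjusted p = 0.0263). *SREBF2*, which encodes the factor of the sterol branch, was at 38.3, 37.2, and 36.9 FPKM in the controls and 31.0, 32.8, and 27.1 in the case replicates. The groups did not overlap, but it did not pass the test (log2 fold change -0.23, adjusted p = 0.114). *NR1H2*, the LXR beta receptor, had a log2 fold change of 0.04 (95% interval -0.24 to 0.31), with a sign that changed with the scaling.

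Of 22 tested genes of sterol synthesis and uptake, 2 were upregulated DE genes, *EBP* (log2 fold change 0.61, adjusted p = 0.0140 by limma) and *FDFT1* (0.32, adjusted p = 0.0357), and none was downregulated by limma or limma voom. At an unadjusted p under 0.05, 9 were higher and 1 was lower, beside 16.8% and 16.2% of all tested genes. The median of the list was 0.21, and 17 of the 22 had a positive value, while with TPM the median was 0.01 and 1 gene was upregulated and 2 were downregulated. The upregulated genes of this list numbered 9 with GC correction, which called 1 lower, and 0 without any one control replicate or case replicate 3. *DHCR7* was at 0.22 (adjusted p = 0.157). In 11 of the 22 the case values lay above the control values without overlap, against 19.5% of all tested genes. 

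Of the 11 tested genes that supply acetyl-CoA and NADPH or regulate the carboxylase, none was a DE gene by limma. At an unadjusted p under 0.05, 2 were higher and 2 were lower, near the 16.8% and 16.2% of all tested genes, and limma voom called 1 lower. *PGD*, which makes NADPH in the pentose phosphate pathway, was at a mean of 178 FPKM in the control group (log2 fold change 0.19, adjusted p = 0.151). Of the 11 tested genes of the remaining elongation cycle, *ELOVL1*, the elongase of saturated very long chains, was upregulated, from 64.1 ± 1.92 to 74.6 ± 3.75 FPKM (SD, n = 3, log2 fold change 0.30, adjusted p = 0.0480 by limma). *TECR*, the reductase that ends each elongation cycle, was at 0.23 (adjusted p = 0.171). The median of this list was -0.23, with 6 of the 11 genes negative, among them *ELOVL2* at -0.27 (adjusted p = 0.117) without overlap of the groups. None of the 7 other tested genes of desaturation was a DE gene by limma or limma voom or had an unadjusted p under 0.05. Their most abundant genes, *CYB5R3* and *CYB5B* of the electron transfer to the desaturases, were at -0.00 and 0.08. In mitochondrial fatty acid synthesis, *NDUFAB1*, the acyl carrier protein that also belongs to complex I, was the DE gene among 8 tested (log2 fold change 0.44, adjusted p = 0.0237), and *MCAT*, which loads malonyl groups, was at 0.08.

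Among 14 tested genes of acyl-CoA handling, *ACSL4*, which prefers arachidonic acid, fell from 15.4 ± 0.796 to 10.2 ± 1.98 FPKM (SD, n = 3, log2 fold change -0.53, adjusted p = 0.0346 by limma). The mitochondrial thioesterase *ACOT9* rose (log2 fold change 0.35, adjusted p = 0.0435), while *DBI*, which binds acyl-CoA, and the fatty acid transporter *SLC27A4*, the most abundant of the list, were at 0.10 and 0.05. In glycerolipid assembly, 1 of 19 tested genes was upregulated, the acyltransferase *GPAT3* (0.38, adjusted p = 0.0263), and 1 was downregulated by limma on FPKM, the lysophosphatidylcholine acyltransferase *LPCAT1* (-0.41, adjusted p = 0.0159). Voom called 1 higher and 2 lower in this list. *AGPAT2*, the most abundant of the list, was at 0.27 (adjusted p = 0.128).

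The lipid droplet list held the change of largest size among the 12 lists. *G0S2*, an inhibitor of the triglyceride lipase ATGL, was at 150, 139, and 144 FPKM in the controls and 371, 297, and 338 in the case replicates (log2 fold change 1.29 ± 0.11, limma adjusted p = 0.00197). *PLIN2*, which coats lipid droplets, was at 8.95, 8.75, and 8.53 FPKM in the controls and 11.4, 11.8, and 12.6 in the case replicates (log2 fold change 0.52, adjusted p = 0.0131). *MGLL*, the monoglyceride lipase, fell from 27.8 ± 0.244 to 18.6 ± 1.22 FPKM (SD, n = 3, log2 fold change -0.51, adjusted p = 0.0144). After gene length correction *MGLL* was at -0.29 and was not a DE gene (adjusted p = 0.108). *PLIN3* was at -0.20 (adjusted p = 0.239). In total 2 of the 8 tested genes of this list were upregulated and 1 was downregulated, beside 7.34% and 5.84% of all tested genes.

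Of 18 tested genes of fatty acid oxidation, *ECI2* (log2 fold change 0.78, adjusted p = 0.0143 by limma) and *ACAA2* (0.44, adjusted p = 0.0445) were upregulated, and none was downregulated by limma on FPKM. At an unadjusted p under 0.05, 4 were higher and 1 was lower, beside 16.8% and 16.2% of all tested genes, and voom called 3 higher and 1 lower. ECI2 shifts the double bond of unsaturated fatty acids so that they can be oxidised, and ACAA2 is a thiolase that ends a cycle of beta-oxidation. The abundant genes *ECHS1* and *HADHA* were at 0.36 (adjusted p = 0.0518) and 0.06. Among uptake genes, 1 of 4 tested, the lipoprotein receptor *VLDLR*, was upregulated (0.47, adjusted p = 0.0366), and *CAV1* and *FABP5* were at -0.03 and 0.42 (adjusted p = 0.0934). AMPK phosphorylates and inhibits acetyl-CoA carboxylase. Of its 8 tested subunits and upstream kinases, *PRKAB1* (0.43), *STK11* (0.38), and *PRKAG1* (0.32) were upregulated with adjusted p of 0.0328, 0.0366, and 0.0451 by limma. The catalytic subunits *PRKAA1* (log2 fold change -0.47, adjusted p = 0.0886) and *PRKAA2* (-0.52, adjusted p = 0.101) lay below the controls in each case replicate and did not pass the test on FPKM, while limma voom called both lower. At an unadjusted p under 0.05, 3 of the 8 were higher and 2 were lower. Over the alternatives the AMPK list held 0 to 3 upregulated and 0 to 2 downregulated genes, with 2 downregulated by TPM, by voom, and without case replicate 2. It held no upregulated gene with TPM, when all genes were tested unfiltered, when the intensity trend was left out, without any one control replicate, or without case replicate 3.

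**Figure D4:**
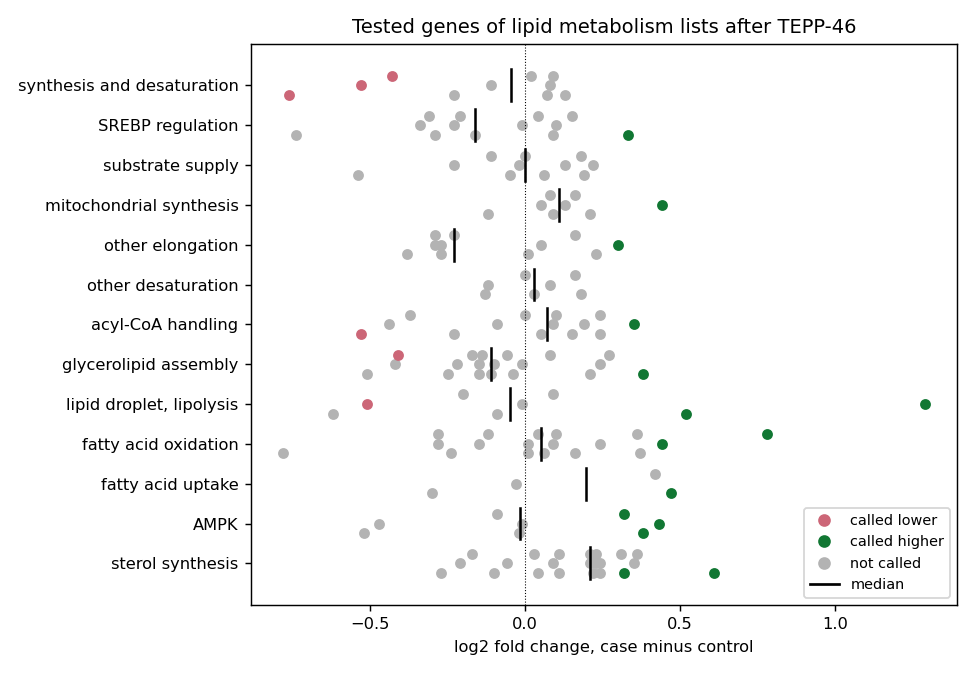
Log2 fold change, case minus control (horizontal axis), of the tested genes of the 10 synthesis and desaturation genes and of 12 lists of lipid metabolism, 1 point per gene, with the median as a black line. Red points were called lower and green points higher by limma, and *G0S2* at 1.29 lies farthest to the right.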

How the data were processed

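RNA of 3 control and 3 case replicates of HK-2 cells was sequenced as paired-end reads. Per the paper's methods and the submitters' processing notes, the authors filtered the reads, aligned them to GRCh38.p13 with HISAT2 (version 2.1.0), counted them per gene with HTSeq (version 0.6.0), and deposited FPKM. RNA selection, strand setting, and annotation version are not given in the sources used here. Symbols, positions, and lengths came from GENCODE annotation of GRCh38 for 29063 of 29483 genes.

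The library totals were solved from the value of 1 read in genes of known length. Whole reads (within 0.01) were then recovered for 99.6% of the 27922 genes above 0. The annotated length gave whole reads for 12598 genes. For 15202 others the length was itself searched to give whole reads, so their recovery is no check of the totals. The recovered reads summed to at least 99.63% of each total. FPKM was scaled by median-of-ratios factors over the genes whose FPKM averaged 0.5 or more, transformed to log2(FPKM + 0.1), and tested with limma 3.58.1 in R 4.3.3 with an intensity trend and no covariates. The fit was tested on simulated reads, drawn with the same dispersion in both groups and no effect of gene length, unlike the data. Single values were compared by exact permutation tests in SciPy.

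Alternatives were pseudocounts of 1 and 0.01, other filters and scalings, robust estimation or no trend, a replicate block, gene length correction, and each replicate left out. GC correction and limma voom on whole reads were chosen after seeing the data. The genes and lists were chosen with earlier results of these data known. Named genes are the 10 genes, those of the ratios, up to 4 DE genes by adjusted p and the 2 most abundant genes of each list, of which 1 is not reported here. *ACACB*, *SCD5*, *ELOVL2*, *PRKAA2*, and the epithelial markers were added after their values were seen.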

Additional observations from a re-analysis of the deposited data

How the results depend on the processing

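The 3 downregulated genes, *FASN*, *ACACA*, and *ACLY*, were negative in all 20 alternative fits. As counts of the 10 genes, there were 3 downregulated DE genes in the limma fit as reported here, 1 with no filter on low values, and between 0 and 3 when each replicate was left out. The count was 0 without control replicate 1, 2, or 3 and 1 without case replicate 3. With gene length correction there was 1 upregulated gene of the 10, against 0 as reported, and leaving out replicates gave 0. Over all tested genes, upregulated and downregulated DE genes by limma numbered 998 and 794 as reported here and 329 and 191 with no filter. They numbered 436 and 416 without the intensity trend, 383 and 2387 with TPM, and 662 and 1124 with FPKM as deposited. The paper called its DE genes with DESeq2, so these counts are not the totals of the paper. With GC correction the upregulated and downregulated DE genes numbered 1766 and 1477, and with limma voom on whole reads 1280 and 1486. Leaving out each replicate gave 56 to 1797 upregulated and 16 to 1655 downregulated genes. TPM moved the median of all tested genes to -0.19 and FPKM as deposited moved it to -0.08, so that genes near 0 turn sign by these scalings alone.

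Over the 12 lists together, 15 upregulated genes became 5 with no filter, 7 with FPKM as deposited, 4 with TPM, 4 without the trend, and 27 with GC correction, and 1 to 23 when each replicate was left out. The 3 downregulated genes became 5 with FPKM as deposited, 23 with TPM, 9 with quantile normalization, 7 with GC correction, 9 with voom, and 0 to 9 when each replicate was left out. The summed FPKM of the 10 genes changed by -12.5% as reported, by -23.6% with TPM, and by -16.0% to -8.40% when each replicate was left out.

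Signs turned among named genes that were not DE genes. With TPM, *SREBF1* was at -0.11, *ELOVL5* -0.18, *FADS1* -0.10, *FADS2* -0.07, *ACSL3* -0.13, *NR1H2* -0.16, *PGD* -0.01, *MCAT* -0.11, *CYB5B* -0.12, *DBI* -0.10, *SLC27A4* -0.15, and *HADHA* -0.14. With FPKM as deposited, *ELOVL5* was at -0.05, *ACSL3* -0.01, *NR1H2* -0.04, *SLC27A4* -0.03, and *HADHA* -0.02. With quantile normalization, *ELOVL5* was at -0.09, *FADS1* -0.03, *FADS2* -0.00, *NR1H2* -0.08, *PGD* -0.03, *CYB5B* -0.03, *DBI* -0.04, *SLC27A4* -0.07, and *HADHA* -0.14. With gene length correction, with or without the replicate block, *ELOVL5* was at -0.02, *NR1H2* -0.01, *MCAT* -0.06, *CYB5R3* 0.06, *DBI* -0.03, *SLC27A4* -0.05, and *ACSS2* 0.02, and *CYB5R3* was at 0.02 with GC correction. When each replicate was left out, *SREBF1* ran from -0.01 to 0.14, *ELOVL5* from -0.06 to 0.09, *ACSL3* from -0.03 to 0.22, *NR1H2* from -0.10 to 0.11, *MCAT* from -0.05 to 0.19, *CYB5R3* from -0.07 to 0.05, *SLC27A4* from -0.05 to 0.11, and *ACSS2* from -0.07 to 0.04. The *FADS1*/*FADS2* difference ran from -0.13 to 0.08 when each replicate was left out. For the other settings the causes were not tested.

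No pairing of the samples by replicate number was seen: deviations of same-numbered samples correlated at 0.0634, 0.0999, and -0.0535, and not every sample correlated best with its own number. With 3 samples a group, such correlations cannot show that the cultures were unpaired. With the replicate block, 848 genes were upregulated and 762 downregulated, the same 3 of the 10 genes were DE genes, and the 12 lists held 9 and 4. Adding gene length correction to the block gave 524 and 372, with 2 of the 10 genes downregulated and 0 upregulated, and 6 and 1 in the lists. The 10 genes had at least 495 reads in each library. With 3 replicates a group, exact tests could not fall below 0.1.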
